A study of Mus musculus with 22 samples.

Results

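The genes described here are 38 genes of the cell cycle: cyclins and their kinases, factors that load the replicative helicase, enzymes that make DNA and its building blocks, and proteins of mitosis. They were taken by symbol from the read count tables and are 38 of 52535 symbols. The list was chosen with earlier results of these data known. All 38 passed the filter on low counts, as did 16765 genes in all. RNA was sequenced from E14, a mouse embryonic stem cell line, after the cells had left LIF and both kinase inhibitors of their growth medium and had spent 1 day in 2 µM retinoic acid, a vitamin A derivative. The 12 libraries fall into 4 genotypes of 3 libraries: unedited cells (WT), cells without element E1 (E1-KO), cells without element E2 (E2-KO) and cells called D-KO, taken here to lack both elements, since the labels do not spell the name out. E1 and E2 are enhancers that the series studies as regulators of the HoxB genes. All genotypes, WT included, received retinoic acid, so no group shows the untreated state. GEO describes the 3 libraries as biological replicates, without stating whether each is its own culture or clone. The p-values can therefore speak only for the spread among these libraries, which may be technical.

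In the mammalian cell cycle, D-type cyclins bind Cdk4 and related kinases and E-type cyclins bind Cdk2, and these kinases release E2F factors from the retinoblastoma protein. E2F factors then switch on genes for origin licensing and DNA synthesis, while a later group of mitotic genes is read out under the MuvB complex with B-Myb and Foxm1. Mouse embryonic stem cells are known for short G1 phases and for high expression of many of these genes throughout the cycle.

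Promoters were printed for 4 genes that the results turn on, to show sequence motifs found in licensing and mitotic genes. Sequences are from RefSeq (GRCm38.p6), run from 250 bases before to 50 after the gene start, and read 5′ to 3′ on the strand of the gene. Capitals mark an E2F site (TTTCCCGC, TTTGGCGC or TTTCGCGC), the cell cycle homology region CHR (TTTGAA) and the CCAAT box (CCAAT), on either strand. Cdc6 (chr11:98907901-98908200, plus strand) and Mcm6 (chr1:128359656-128359955, minus strand) stand for the licensing genes, and Aurka (chr2:172370521-172370820, minus strand) and Mki67 (chr7:135716330-135716629, minus strand) for the mitotic genes.
Cdc6: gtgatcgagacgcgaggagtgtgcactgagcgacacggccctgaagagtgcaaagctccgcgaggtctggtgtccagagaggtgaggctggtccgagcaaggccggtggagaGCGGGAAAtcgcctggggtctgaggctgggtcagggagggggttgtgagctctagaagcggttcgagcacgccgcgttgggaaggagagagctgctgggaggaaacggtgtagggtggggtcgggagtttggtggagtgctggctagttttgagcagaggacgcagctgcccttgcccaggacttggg
Mcm6: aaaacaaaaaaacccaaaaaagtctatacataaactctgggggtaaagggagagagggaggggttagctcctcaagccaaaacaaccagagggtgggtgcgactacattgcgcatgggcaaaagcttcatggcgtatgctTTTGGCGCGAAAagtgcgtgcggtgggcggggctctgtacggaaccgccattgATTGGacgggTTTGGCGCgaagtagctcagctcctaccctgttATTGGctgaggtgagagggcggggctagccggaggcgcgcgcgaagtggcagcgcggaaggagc
Aurka: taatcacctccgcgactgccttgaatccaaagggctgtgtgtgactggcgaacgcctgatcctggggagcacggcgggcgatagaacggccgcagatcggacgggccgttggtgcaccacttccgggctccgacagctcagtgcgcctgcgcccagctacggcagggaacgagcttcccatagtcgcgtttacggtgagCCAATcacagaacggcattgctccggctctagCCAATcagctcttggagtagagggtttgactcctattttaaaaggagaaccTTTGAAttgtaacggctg
Mki67: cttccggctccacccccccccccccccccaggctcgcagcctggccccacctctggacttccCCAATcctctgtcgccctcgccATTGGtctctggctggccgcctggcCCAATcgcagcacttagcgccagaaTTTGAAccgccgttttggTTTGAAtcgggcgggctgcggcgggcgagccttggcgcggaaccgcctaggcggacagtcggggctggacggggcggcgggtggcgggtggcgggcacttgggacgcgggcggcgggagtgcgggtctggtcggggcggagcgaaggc
The Cdc6 promoter holds 1 E2F site, at base 113, and no CCAAT box. Its window follows the RefSeq start, whereas GENCODE M21 places the start of Cdc6 at base 98907801, ahead of the window. The Mcm6 promoter holds 3 E2F sites, at bases 141, 145 and 204, the first pair overlapping on opposite strands, and 2 CCAAT boxes. Aurka holds 1 CHR at base 283 behind 2 CCAAT boxes, and Mki67 holds 2 CHR matches and 3 CCAAT boxes.

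A promoter was found for 31 of the 38 genes, the others being Ccnd1, Ccnd2, Ccne2, Gmnn, Mcm4, Ccna2 and Aurkb. An E2F site was present in 9 of the 31 (29.0%), against 2.12% of 27025 promoters of the same length. Of the 8 licensing genes with a promoter 7 had one, namely Orc1, Cdc6, Cdt1, Mcm3, Mcm5, Mcm6 and Mcm7. An E2F site was found in 0 of the 4 genes of DNA and nucleotide synthesis and in 1 of 5 G1 genes. The CHR was present in 11 of 31 (35.5%), against 20.2% of all promoters, and 8 of those 11 were mitotic kinase, checkpoint, chromosome or spindle genes. CCAAT boxes were present in 24 of 31 (77.4%), against 41.1%. They were frequent in licensing genes (75%), mitotic kinase and checkpoint genes (83.3%) and chromosome and spindle genes (100%). The half-site of the retinoic acid receptor (AGGTCA) was present in 5 of 31 (16.1%), against 18.1% of all promoters. A match is a description of these letters and not evidence of binding.

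Between 9101547 and 13007735 reads per library were assigned to genes. Hoxb1, at the end of the cluster that retinoic acid switches on first, lay at 17.2 to 31.4 CPM (library-size scaled counts, with TMM normalisation) in WT and at 0.186 to 1.15 CPM in the other genotypes, and 9 of 10 HoxB genes fell in each of E1-KO, E2-KO and D-KO. Embryonic stem cell markers were above 1 CPM in 8 of 8 cases in every genotype. Their summed level was 2561 to 4878 CPM for WT, 6407 to 6760 for E1-KO, 6042 to 6511 for E2-KO and 5133 to 5317 for D-KO. Summed primitive endoderm markers ran from 332 to 368 CPM for WT, 133 to 142 for E1-KO, 201 to 212 for E2-KO and 208 to 216 for D-KO. Fibroblast markers summed to at most 34.6 CPM, with Postn at 0 in all WT, E2-KO and D-KO libraries, Twist2 in all of E1-KO and D-KO, and Prrx1 in all of D-KO, and early neural markers to at most 46.9 CPM. These shifts in marker levels run alongside the comparisons with WT below, and their part in them was not tested. In bulk RNA, fewer cells in a phase of the cycle and less RNA per cell cannot be told apart.

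Spread within a genotype was widest in WT. The median coefficient of variation of the 38 genes was 18.4% for WT, 3.46% for E1-KO, 3.49% for E2-KO and 2.94% for D-KO. It was 25.0%, 7.60%, 8.34% and 7.85% over all genes with a mean of at least 1 CPM. The members also had higher levels, with a median mean of 226 CPM against 17.7 over all genes tested. The shares of all genes given below are therefore not from genes of matched level or spread. Mitochondrial transcripts took 3.50%, 1.94% and 5.88% of counts in WT replicates 1, 2 and 3, and 1.36% to 2.69% in the other libraries. Across genes, relative expression had a Spearman correlation with transcript GC content of -0.56 for WT replicate 1, 0.14 for replicate 2 and -0.43 for replicate 3. It was 0.25 to 0.35 for E1-KO, 0.30 to 0.43 for E2-KO and -0.10 to -0.02 for D-KO. Results against WT were therefore also computed with WT replicate 2 as the only WT library and after removal of GC content and length trends, and are given below for the members where that ended a call or moved a value by over 1.5 times.

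Against WT, the single deletions had more of the 38 genes lower than higher, and D-KO had more higher than lower. With edgeR's quasi-likelihood test over all 12 libraries (Benjamini-Hochberg adjusted p below 0.05), E1-KO had 3 members higher (7.89%, against 15.7% of all tested genes) and 12 lower (31.6%, against 18.5%). E2-KO had 3 higher (7.89%, against 16.7%) and 8 lower (21.1%, against 18.6%). D-KO had 8 higher (21.1%, against 10.6%) and 1 lower (2.63%, against 12.2%). The share higher in each single deletion was thus below that of all genes, and the share lower in E2-KO was close to it. The members' median log2 fold change was -0.15 for E1-KO, -0.06 for E2-KO and 0.05 for D-KO, against -0.01, 0.00 and -0.02 over all genes tested. Library totals as the only scaling moved the median of all genes to 0.10, 0.08 and -0.01 and that of the members to -0.04, 0.02 and 0.06, so the sign of the E2-KO median depended on the scaling. These comparisons share the WT libraries. By full separation of the 3 libraries from the 3 WT libraries, E1-KO had 2 members above and 14 below (5.26% and 36.8%, against 21.0% and 20.1% of all genes). E2-KO had 9 above and 9 below (23.7% each, against 21.2% and 19.7%), and D-KO 14 above and 2 below (36.8% and 5.26%, against 16.6% and 16.2%).

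These counts rested on WT. Without WT replicate 2, E1-KO had 9 members higher and 17 lower (25.4% and 25.7% of all genes), E2-KO 9 and 15 (26.2% and 25.7%), and D-KO 13 and 12 (20.3% and 20.6%), so more of all genes were called as well. With WT replicate 2 as the only WT library, assumed to vary like the other groups, they were 5 and 12 (15.6% and 15.3%), 6 and 8 (15.5% and 14.6%), and 20 and 6 (17.7% and 17.1%). Without WT replicate 3, D-KO had 13 higher and 2 lower (11.4% and 12.4%). In a fit to only the 6 libraries compared, E1-KO had 2 higher and 4 lower (7.59% and 8.35% of all genes), E2-KO 2 and 3 (7.44% and 8.58%) and D-KO 1 and 1 (4.10% and 4.99%). Leaving out 1 E1-KO library lowered the E1-KO count of lower members to 7 for each of the 3 (11.9% to 13.2% of all genes). Leaving out E2-KO replicate 2 lowered that of E2-KO to 5 (11.9% of all genes). The D-KO count of higher members was 3 without any 1 D-KO library (6.61% to 7.09% of all genes). It was 5 without any 1 library of E1-KO or E2-KO (8.98% to 9.27%).

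**Figure D1:**
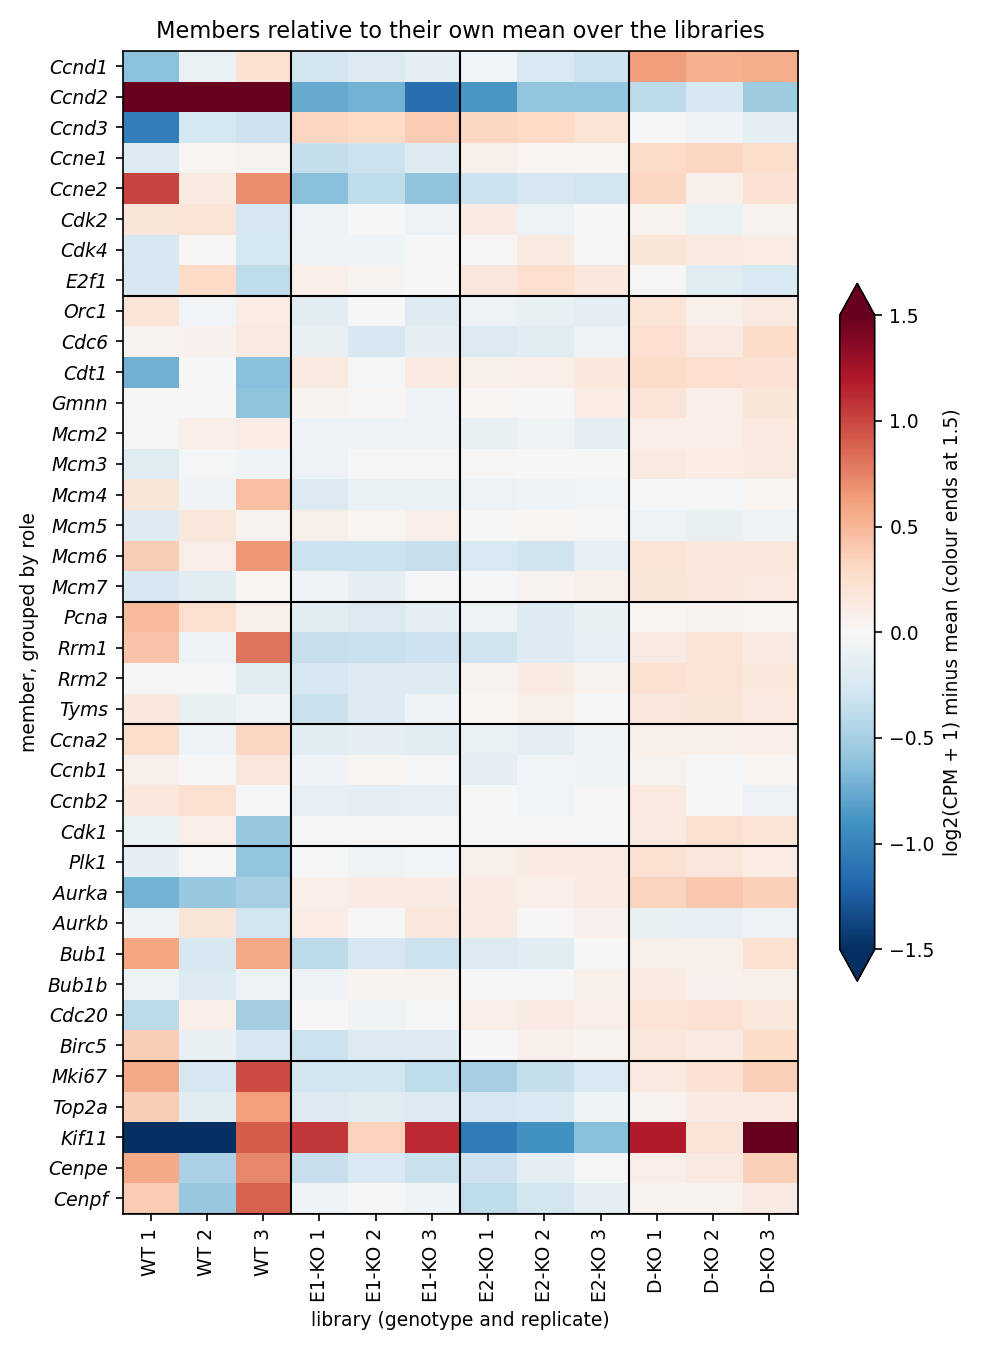
Level of each of the 38 genes (vertical axis, ordered by role) in each of the 12 libraries (horizontal axis), as log2(CPM + 1) minus the gene's mean over the libraries, in colour ending at 1.5. Ccnd2 was highest in the 3 WT libraries, the 3 WT libraries differed from each other more than those of any other genotype, and most rows are warmer in D-KO than in E1-KO and E2-KO.

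The G1 cyclins held the largest differences. Ccnd2 (cyclin D2; chr6:127125162-127152193, GRCm38, minus strand) was at 62.7, 49.6 and 96.1 CPM in WT replicates 1 to 3. It was at 9.48, 9.86 and 7.06 CPM across E1-KO, 8.68, 10.7 and 10.8 across E2-KO and 12.5, 14.0 and 11.2 across D-KO. Every WT library was thus well above every other library. Ccnd2 fell in E1-KO by 2.98 ± 0.22 on the log2 scale (SE, edgeR adjusted p = 7.05e-07), or 7.86-fold. It fell in E2-KO by 2.78 ± 0.22 (adjusted p = 1.81e-06) and in D-KO by 2.46 ± 0.21 (edgeR adjusted p = 4.58e-06). With WT replicate 2 alone as WT, the log2 fold changes were -2.48, -2.29 and -1.98, and Ccnd2 was called in each comparison with WT under all 9 other settings and in all 12 fits that left out 1 library. The falls did not add up in D-KO, as the interaction on the log2 scale (D-KO - E1-KO - E2-KO + WT) was 3.29 ± 0.32 (edgeR adjusted p = 7.14e-06).

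The other D-type cyclins went another way. Ccnd3 (cyclin D3; chr17:47505051-47599691, plus strand) was at 237, 405 and 390 CPM across WT, 609, 597 and 631 across E1-KO, 604, 596 and 561 across E2-KO and 478, 468 and 437 across D-KO. All WT libraries were below all others, with D-KO between WT and the single deletions. Ccnd3 rose in E1-KO by 0.83 ± 0.16 (edgeR adjusted p = 0.00132) and in E2-KO by 0.77 ± 0.16 (adjusted p = 0.00227). These calls held in every other setting, with values of 0.52 and 0.49 once GC content and length trends were removed. In D-KO the log2 fold change was 0.42 and was not called. The interaction for Ccnd3 was -1.18 ± 0.22 (edgeR adjusted p = 0.00133), or -0.69 and still called with the trends removed.

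Ccnd1 (cyclin D1; chr7:144929931-144939925, minus strand) was at 25.8, 37.2 and 46.9 CPM across WT, 32.9, 34.2 and 36.5 across E1-KO, 38.9, 33.9 and 31.7 across E2-KO and 62.3, 58.6 and 59.3 across D-KO. All D-KO libraries stood above all 9 others, which overlapped. Ccnd1 rose in D-KO against WT by 0.72 ± 0.17 (edgeR adjusted p = 0.00712), against E1-KO by 0.80 ± 0.17 (adjusted p = 0.00641) and against E2-KO by 0.79 ± 0.17 (adjusted p = 0.0171). Its log2 fold changes in E1-KO and E2-KO against WT were -0.08 and -0.07. With only the 6 libraries of D-KO and WT the adjusted p was 0.0679. The call against E2-KO was lost without any 1 D-KO library and without E2-KO replicate 2 or 3, with 0.72 to 0.87 over the 12 fits. Exons of LTO1 on the opposite strand cover 23.4% of the exon bases of Ccnd1, and reads of the pair cannot be told apart, because no source used here states the strand setting of the counting. Per kb of exon, Ccnd3 was the most abundant D-type cyclin in every genotype, at 39.2 CPM per kb in WT, 69.8 and 66.9 in the single deletions (E1-KO, then E2-KO) and 52.5 in D-KO. In the same order Ccnd1 stood at 7.78, 7.34, 7.40 and 12.8 CPM per kb and Ccnd2 at 7.38, 0.935, 1.07 and 1.34, so the near-equal levels of both in WT became unequal in the other genotypes.

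**Figure D2:**
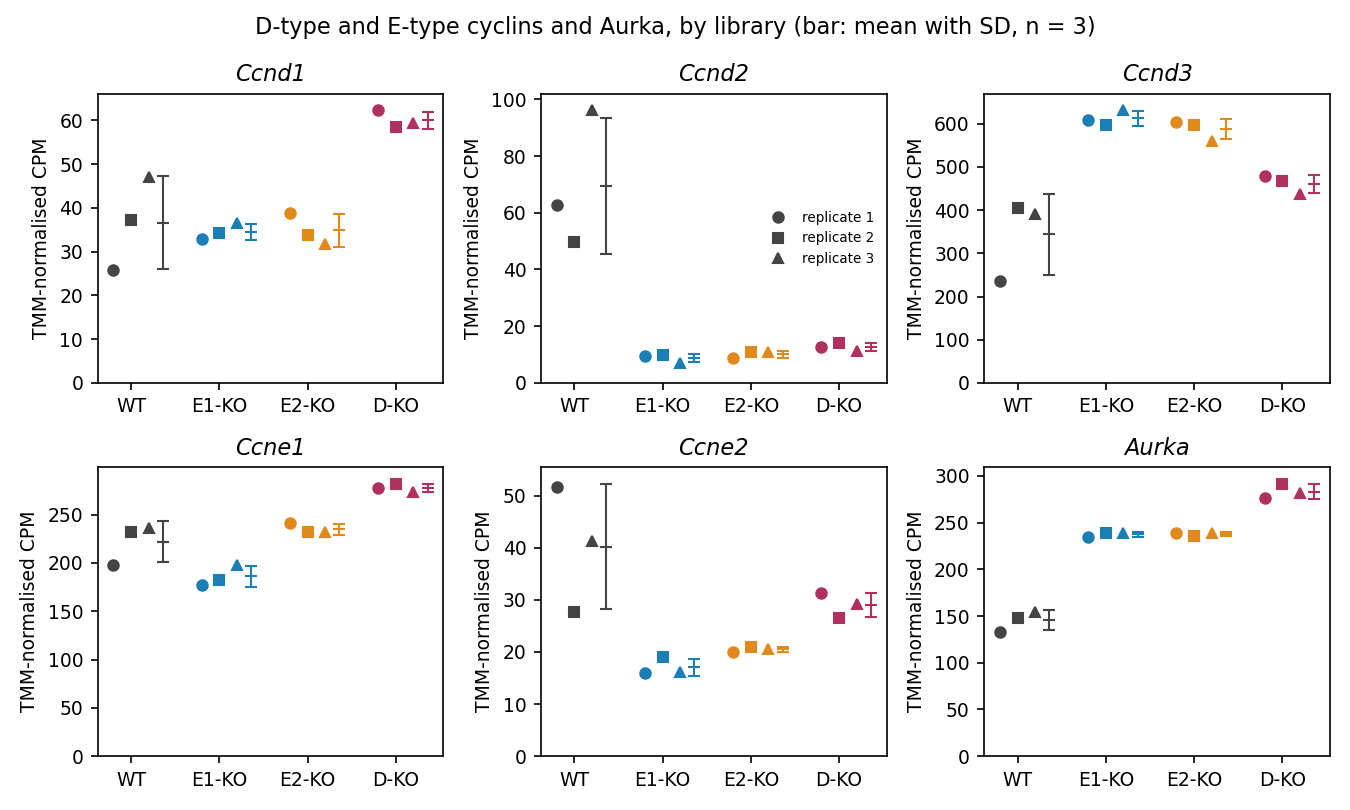
TMM-normalised CPM of the D-type and E-type cyclins and Aurka (vertical axes) in the 3 libraries of each genotype (horizontal axes), with symbols for replicates and a bar for the mean with SD. Ccnd2 was high in WT alone, Ccnd1 was high in D-KO alone, and Aurka was lowest in the 3 WT libraries and highest in the 3 D-KO libraries.

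The E-type cyclins differed from each other. Ccne2 (cyclin E2; chr4:11191351-11204779, plus strand) was at 51.8, 27.7 and 41.4 CPM across WT, 15.9, 19.0 and 16.2 across E1-KO, 19.9, 21.0 and 20.6 across E2-KO and 31.3, 26.6 and 29.2 across D-KO. The WT and D-KO libraries overlapped, and both single deletions lay below all of them. Ccne2 fell in E1-KO by 1.24 ± 0.18 (edgeR adjusted p = 0.00022) and in E2-KO by 0.97 ± 0.18 (adjusted p = 0.00136). Once GC content and length trends were removed these values were -0.65 and -0.39, and with WT replicate 2 alone as WT they were -0.69 and -0.43, all still called. Ccne2 has the lowest GC content of the 38 genes (36.3%), and 17.4% of its exon bases lie in exons of Ints8 on the opposite strand. In D-KO against WT the log2 fold change was -0.47, not called, and D-KO was above E1-KO by 0.77 ± 0.19 (edgeR adjusted p = 0.0141). That call was lost without replicate 1 or 3 of either genotype, with 0.71 to 0.85 over the 12 fits that left out 1 library.

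Ccne1 (cyclin E1) was at 198, 232 and 236 CPM across WT, 178, 183 and 198 across E1-KO, 242, 232 and 232 across E2-KO and 278, 282 and 273 across D-KO. D-KO libraries were above all others. Ccne1 was higher in D-KO than in E1-KO by 0.58 ± 0.10 (edgeR adjusted p = 0.00183), a call kept in every setting, and higher than in WT by 0.32 ± 0.10 (adjusted p = 0.0305), a call lost with GC content and length trends removed (0.18). It was also lost without any 1 D-KO library. Cdk4, partner of the D-type cyclins, rose in D-KO against WT by 0.31 ± 0.10 (edgeR adjusted p = 0.0419), but that value was 0.17 and not called with the trends removed, it was 0.14 with WT replicate 2 alone, and it was called in 2 of the 12 fits that left out 1 library. Cdk2, partner of the E-type cyclins, and E2f1, an activating E2F factor, were not called in any comparison, with log2 fold changes between -0.46 and 0.27.

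Among the 10 genes of origin licensing and the MCM helicase, 1 rose and 3 fell in E1-KO, 1 rose and 1 fell in E2-KO, and 2 rose in D-KO against WT. In E1-KO 10% rose and 30% fell, against 15.7% and 18.5% of all genes. The E2-KO share of 10% each way was below the 16.7% and 18.6% of all genes. In D-KO 20% rose and 0% fell, against 10.6% and 12.2%. Mcm6, a subunit of the MCM helicase whose promoter is printed above, was at 506, 420 and 616 CPM across WT, 313, 313 and 309 across E1-KO, 334, 317 and 359 across E2-KO and 447, 436 and 440 across D-KO. Every library of the single deletions was below every WT and D-KO library. Mcm6 fell in E1-KO by 0.72 ± 0.12 (edgeR adjusted p = 0.000625) and in E2-KO by 0.61 ± 0.12 (adjusted p = 0.00213), and both calls were kept under all 9 other settings, at -0.42 and -0.32 with WT replicate 2 alone. In D-KO against WT it was at -0.22, not called. It was higher in D-KO than in E1-KO by 0.50 ± 0.12 (edgeR adjusted p = 0.0151), and that call was lost without any 1 library of E1-KO or D-KO.

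Cdc6, which loads the helicase together with Cdt1, was at 112, 113 and 119 CPM across WT, 99.4, 91.2 and 98.4 across E1-KO, 92.7, 95.9 and 102 across E2-KO and 129, 119 and 131 across D-KO. Both single deletions were below WT and D-KO in every library, and D-KO overlapped WT. Cdc6 was higher in D-KO than in E1-KO by 0.39 ± 0.09 (edgeR adjusted p = 0.0133) and than in E2-KO by 0.38 ± 0.09 (adjusted p = 0.0336). The call against E1-KO was kept in the 9 other settings but lost without E1-KO replicate 2 and without D-KO replicate 1 or 3, and that against E2-KO was lost without any 1 library of E1-KO, E2-KO or D-KO (0.35 to 0.42). In E1-KO against WT it fell by 0.25 ± 0.09 (edgeR adjusted p = 0.049), a call that 7 of 9 settings (-0.20 with the trends removed) and 10 of 12 fits without 1 library did not keep.

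Cdt1 was at 97.3, 162 and 104 CPM across WT, 179, 158 and 178 across E1-KO, 169, 172 and 180 across E2-KO and 195, 191 and 188 across D-KO, so WT replicate 2 lay near the other genotypes and replicates 1 and 3 far below. Cdt1 rose in E1-KO by 0.50 ± 0.15 (edgeR adjusted p = 0.0225), in E2-KO by 0.52 ± 0.15 (adjusted p = 0.0188) and in D-KO by 0.66 ± 0.15 (adjusted p = 0.00752). After GC content and length trends were taken out these were 0.08 and 0.03, not called, and 0.39 in D-KO, still called. With WT replicate 2 alone Cdt1 was at 0.10 and 0.11, not called, and at 0.24 in D-KO, called. The Cdt1 calls of both single deletions were also lost without WT replicate 1, that of E1-KO without its replicate 1 or 3, and that of E2-KO without its replicate 3. Mcm4 fell in E1-KO by 0.34 ± 0.12 (edgeR adjusted p = 0.0373) and Mcm7 rose in D-KO by 0.29 ± 0.10 (adjusted p = 0.049), and neither was called with the trends removed (-0.15 and 0.17). Mcm4 was at -0.07 and not called with WT replicate 2 alone. Orc1, Gmnn, which encodes the Cdt1 inhibitor geminin, Mcm2, Mcm3 and Mcm5 were not called against WT, at log2 fold changes of -0.21 to 0.34.

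Of the 4 genes of DNA and nucleotide synthesis, 2 fell in E1-KO and the same number in E2-KO. That was 50% in each, against 18.5% and 18.6% of all genes. Pcna, the sliding clamp of the replication fork, was at 329, 280 and 249 CPM across WT, 210, 203 and 212 across E1-KO, 223, 207 and 219 across E2-KO and 241, 244 and 240 across D-KO. Every WT library was above all others. Pcna fell in E1-KO by 0.46 ± 0.11 (edgeR adjusted p = 0.00515) and in E2-KO by 0.40 ± 0.11 (adjusted p = 0.0104), and was at -0.24 in D-KO, not called. With only the 6 libraries of a comparison the Pcna values were -0.45 and -0.42 and neither was called. Removal of the trends gave -0.27 for Pcna in both, still called, and the call in E2-KO was lost without E2-KO replicate 2.

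Rrm1, the large subunit of ribonucleotide reductase, was at 346, 244 and 450 CPM across WT, 203, 205 and 208 across E1-KO, 210, 226 and 237 across E2-KO and 281, 297 and 281 across D-KO. The single deletions were below every WT library, though by little against WT replicate 2. Rrm1 fell in E1-KO by 0.75 ± 0.16 (edgeR adjusted p = 0.00305), and in E2-KO by 0.63 ± 0.16 (adjusted p = 0.00908). Removal of the trends gave Rrm1 values of -0.36, called, and -0.14, not called, and WT replicate 2 alone gave -0.24, called, and -0.12, not called. Rrm2, its small subunit, was at 295, 291 and 262 CPM across WT, 248, 256 and 258 across E1-KO, 306, 321 and 306 across E2-KO and 346, 339 and 329 across D-KO. The genotypes did not overlap in any pair. Only D-KO against E1-KO was called for Rrm2, at 0.41 ± 0.09 (edgeR adjusted p = 0.00867), and the call was lost without E1-KO replicate 1. Tyms, thymidylate synthase, was higher in D-KO than in E1-KO by 0.36 ± 0.10 (edgeR adjusted p = 0.0312), a call that library totals as the scaling ended (0.27) and that 7 of the 12 fits without 1 library did not keep.

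The cyclins of S phase and mitosis and their kinase Cdk1 moved little. Ccna2 (cyclin A2) fell in E1-KO by 0.34 ± 0.11 (edgeR adjusted p = 0.0265), which became -0.15 with the trends removed and -0.07 with WT replicate 2 alone, neither called. The Ccna2 call was also lost without WT replicate 1 or any 1 E1-KO library. Ccnb1, Ccnb2 and Cdk1 were not called in any of the 7 comparisons, with log2 fold changes between -0.26 and 0.36.

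Among the 7 mitotic kinases and checkpoint genes, Aurka (Aurora kinase A, of the spindle poles; chr2:172356190-172370535, minus strand) rose in all 3 comparisons with WT. It was at 133, 148 and 155 CPM across WT, 235, 239 and 239 across E1-KO, 239, 235 and 239 across E2-KO and 276, 292 and 282 across D-KO. All WT libraries were below all others and all D-KO libraries above. Aurka rose by 0.71 ± 0.09 in E1-KO (edgeR adjusted p = 6.76e-05), 0.71 ± 0.09 in E2-KO (adjusted p = 7.32e-05) and 0.96 ± 0.09 in D-KO (edgeR adjusted p = 8.47e-06). These calls were kept in all 9 other settings and all 12 fits without 1 library, at 0.55 to 1.02. Its difference of 0.25 between D-KO and each single deletion was not called. The interaction was -0.46 ± 0.13 (edgeR adjusted p = 0.0152), so the rise in D-KO was smaller than the sum of the single rises, and it was not called with the trends removed (-0.24).

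Plk1, a kinase of mitotic entry, and Cdc20, an activator of the anaphase promoting complex, rose in D-KO against WT by 0.39 ± 0.13 (edgeR adjusted p = 0.0431) and 0.45 ± 0.13 (adjusted p = 0.0273). Neither Plk1 nor Cdc20 was called with the trends removed (0.12 and 0.18) or with WT replicate 2 as the only WT library (0.16 and 0.10). Birc5 (survivin) was higher in D-KO than in E1-KO by 0.44 ± 0.14 (edgeR adjusted p = 0.0424), a call that 9 of the 12 fits without 1 library did not keep. Aurkb and Bub1b were not called in any comparison.

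Genes of chromosome structure and the spindle showed the spread of WT most plainly. Mki67, the proliferation antigen, was at 518, 295 and 690 CPM across WT, 289, 290 and 270 across E1-KO, 249, 274 and 299 across E2-KO and 387, 406 and 449 across D-KO. WT replicate 2 lay at the level of the single deletions and replicates 1 and 3 above D-KO. Mki67 fell in E1-KO by 0.83 ± 0.21 (edgeR adjusted p = 0.00882) and in E2-KO by 0.87 ± 0.21 (adjusted p = 0.00675). Taking WT replicate 2 alone as WT, these Mki67 values were -0.05 and -0.11, not called, while with GC content and length trends removed they were -0.54 and -0.51, called.

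Top2a (topoisomerase II alpha), the checkpoint kinase gene Bub1 and the kinetochore motor gene Cenpe likewise had their lowest WT level in replicate 2. Top2a was at 1181, 809 and 1403 CPM in WT, 769 to 875 in the single deletions and 949 to 1013 in D-KO. Top2a fell by 0.51 ± 0.15 in E1-KO (edgeR adjusted p = 0.0206) and 0.49 ± 0.15 in E2-KO (adjusted p = 0.0254). With the trends removed these Top2a values were -0.15 and -0.07, with WT replicate 2 alone they were -0.02 and 0.00 (-0.001), and none was called. Both were also lost without WT replicate 1 or 3, that of E1-KO without any 1 E1-KO library, and that of E2-KO without its replicate 1 or 2.

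Bub1 was at 277, 156 and 275 CPM in WT, 140 to 183 in the single deletions and 196 to 217 in D-KO. Bub1 fell by 0.68 ± 0.17 in E1-KO (edgeR adjusted p = 0.00788) and 0.48 ± 0.17 in E2-KO (adjusted p = 0.0431). With WT replicate 2 alone as WT, Bub1 was at -0.07 and 0.12, not called, and with the trends removed it was at -0.30, called at an edgeR adjusted p of 0.0498, and -0.12, not called. The Bub1 call in E2-KO was kept in 1 of 12 fits without 1 library. Cenpe fell in E1-KO by 0.66 ± 0.22 (edgeR adjusted p = 0.0329), and with WT replicate 2 alone it was at 0.20 and with the trends removed at -0.27, neither called. The Cenpe call was kept in 4 of 9 settings and 7 of 12 fits without 1 library. Cenpf, another kinetochore gene, was at 288, 148 and 408 CPM in WT and 169 to 241 in the other genotypes, and was not called.

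Kif11, the Eg5 spindle motor, varied far more than any other member. It was at 4.63, 5.86 and 47.4 CPM across WT, 53.1, 31.9 and 55.3 across E1-KO, 11.5, 12.8 and 15.8 across E2-KO and 58.2, 28.5 and 94.5 across D-KO. WT replicates 1 and 2 were below all other libraries, and E2-KO was below all of E1-KO and D-KO. Its highest level was 10.2 times its lowest within WT and up to 3.31 times within another genotype. No comparison was called for Kif11, and its log2 fold changes ran from -1.80 (E2-KO against E1-KO) to 2.18 (D-KO against E2-KO).

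**Figure D3:**
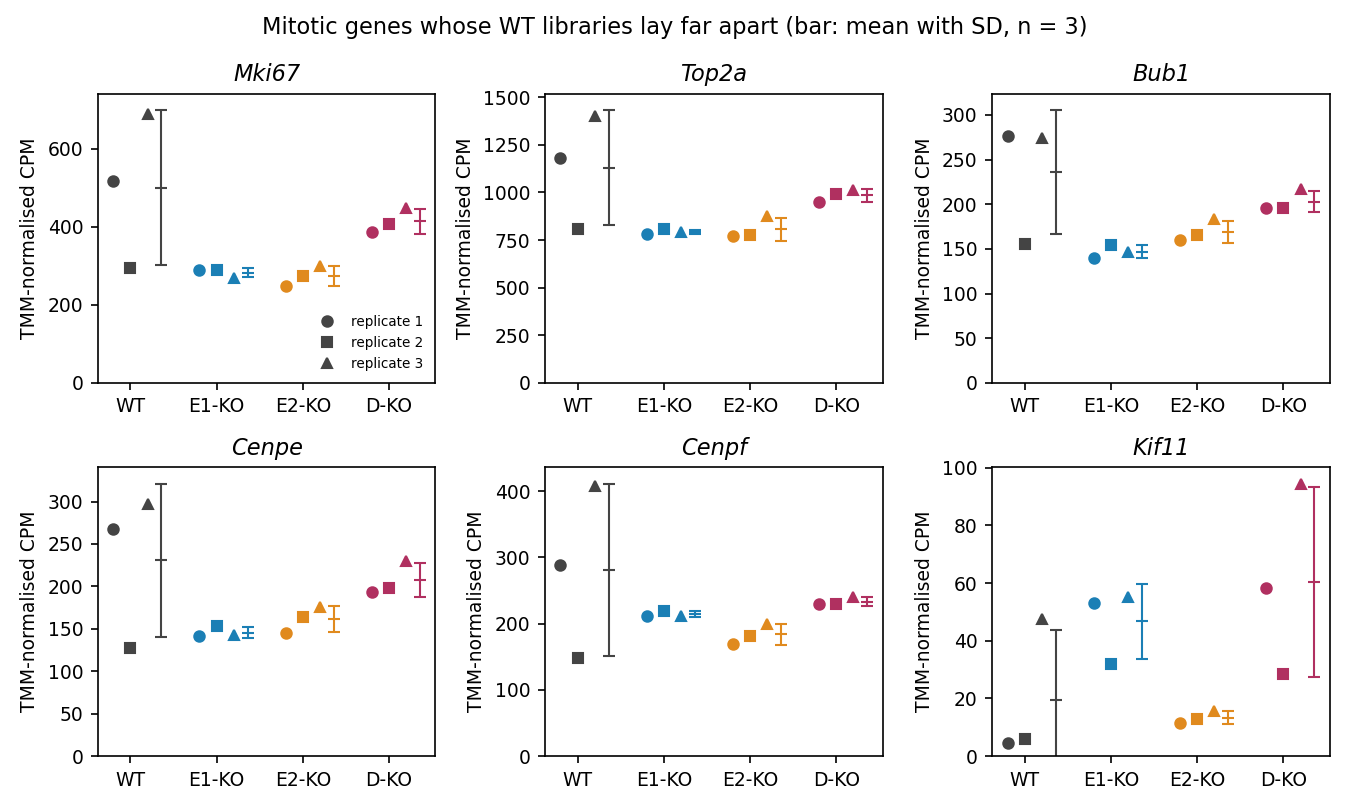
TMM-normalised CPM of Mki67, Top2a, Bub1, Cenpe, Cenpf and Kif11 (vertical axes) in the 3 libraries of each genotype (horizontal axes), with symbols for replicates and a bar for the mean with SD, cut at 0. In the first 5 genes WT replicates 1 and 3 lay above WT replicate 2, which was near or below the single deletions, and Kif11 varied within WT and within D-KO.

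The ratio between WT libraries followed the GC content of the transcripts. Over the 38 genes, the Spearman correlation of GC content with the log2 ratio of WT replicate 1 to replicate 2 was -0.80, and with that of replicate 3 to replicate 2 it was -0.71, against -0.64 and -0.48 over 16271 genes. The log2 fold changes of the members against WT correlated with GC content at 0.67 for E1-KO, 0.81 for E2-KO and 0.59 for D-KO, against 0.46, 0.48 and 0.31 over all genes. For D-KO against E1-KO and E2-KO the correlations over the members were -0.43 and -0.58. The genes share their libraries and are not independent, so these values are descriptions of these libraries. Removing GC content and length trends left 2 members higher and 11 lower in E1-KO (15.3% and 16.9% of all genes), 3 and 7 in E2-KO (15.1% and 16.0%) and 7 and 2 in D-KO (13.5% and 12.7%).

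**Figure D4:**
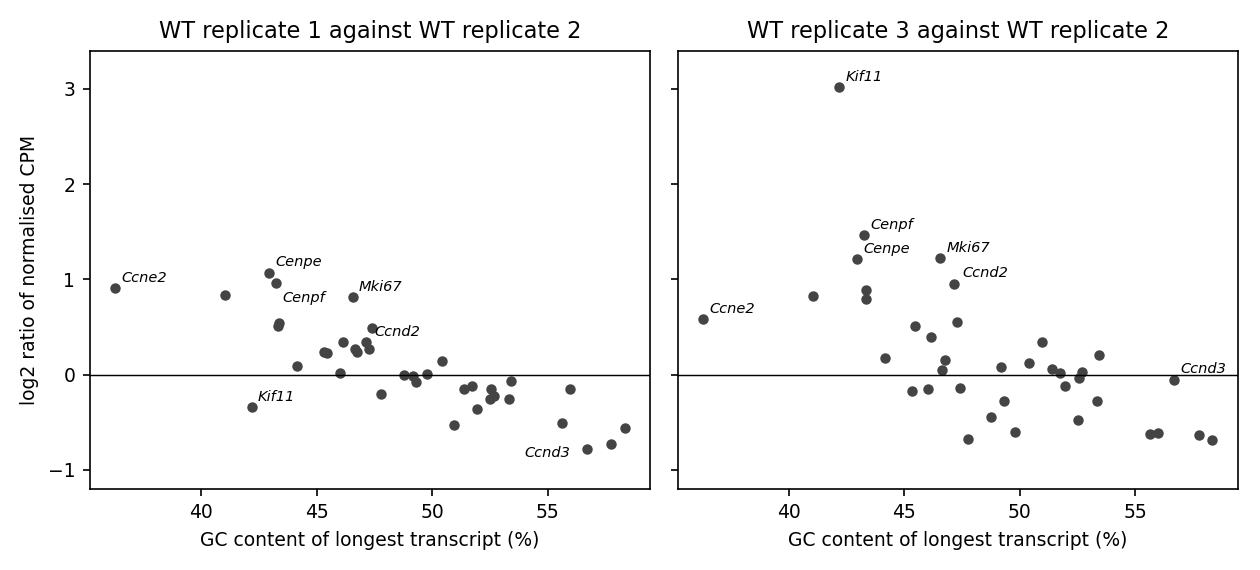
Each point is 1 of the 38 genes, with the GC content of its longest transcript on the horizontal axis and the log2 ratio of normalised CPM between WT libraries on the vertical axis, for replicate 1 (left) and replicate 3 (right) against replicate 2. Genes of low GC content such as Ccne2, Cenpe and Cenpf lay above 0 in both panels, with Spearman correlations of -0.80 and -0.71.

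Between the single deletions, edgeR called 0 members higher and 0 lower in E2-KO than in E1-KO, against 0.274% and 0.322% of all genes. At an unadjusted p under 0.05 there were 4 higher and 1 lower of the 38, against 989 and 835 of all 16765 genes. DESeq2 called 2 higher and 0 lower, against 0.737% and 0.762% of all genes. With limma voom and sample weights these were 4 and 0, against 9.57% and 8.05%. With GC content and length trends removed edgeR called 0 and 0 (against 0.901% and 0.686%), and on only these 6 libraries 7 and 2 (against 10.6% and 10.8%). When WT replicate 2 was the only WT library, the members' median log2 fold change was 0.05, against 0.01 over all genes. Without WT replicate 2 or 3, 2 members were higher in each case, against 1.76% and 1.84% of all genes. Libraries were fully separated in 17 members higher in E2-KO (44.7%, against 19.0% of all genes) and 2 lower (5.26%, against 15.7%). Rrm2, Ccne1 and Birc5 were among the 17, at log2 fold changes of 0.29, 0.34 and 0.29 that were not called.

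D-KO stood above the single deletions in most members. The 3 D-KO libraries were all above the 3 E1-KO libraries in 31 of 38 genes (81.6%, against 27.3% of all genes) and all below in 3 (7.89%, against 27.1%). Against E2-KO they were all above in 28 (73.7%, against 22.8%) and all below in 4 (10.5%, against 23.0%). Ccnd3, Mcm5 and Aurkb were below in both comparisons, and E2f1 was below E2-KO. Both comparisons share the D-KO libraries, and all genes were not matched to the members' higher level and smaller spread. By edgeR over 12 libraries, 8 members were higher in D-KO than in E1-KO (21.1%, against 8.43%) and 0 lower (against 7.52%). The 8 were Ccnd1, Ccne1, Ccne2, Cdc6, Mcm6, Rrm2, Tyms and Birc5. Against E2-KO 2 were higher (5.26%, against 1.84%), Ccnd1 and Cdc6, and 0 lower (against 2.64%). At an unadjusted p under 0.05, 18 of the 38 were higher and 1 lower against E1-KO, where 2718 and 2592 of all 16765 genes were. Against E2-KO 11 were higher and 2 lower at that level, where 1674 and 1871 of all genes were. The members' median log2 fold change was 0.24 against E1-KO and 0.15 against E2-KO, where all genes had -0.01 and -0.02. Scaled by library totals alone, the medians were 0.14 and 0.09, and those of all genes -0.11 and -0.08.

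The number of calls between D-KO and the single deletions depended on whether WT shared the estimate of spread. On only the 6 libraries compared, edgeR called 30 members higher and 4 lower in D-KO than in E1-KO (25.6% and 25.0% of all genes) and 25 higher and 4 lower than in E2-KO (19.0% and 18.3%). limma voom with sample weights called 29 and 4 (23.9% and 23.8% of all genes), and 20 and 3 (17.5% and 17.6%), and DESeq2 12 and 0 (9.24% and 7.64%), and 5 and 0 (3.47% and 3.79%). Removing GC content and length trends gave 18 higher and 0 lower against E1-KO (12.3% and 9.54% of all genes) and 8 and 0 against E2-KO (4.44% and 3.82%). Without WT replicate 2 the counts of higher members were 20 and 15 (15.0% and 8.24% of all genes), and without WT replicate 3 they were 19 and 9 (14.0% and 6.66%). Without 1 library of E1-KO or D-KO the count of higher members against E1-KO was 3 to 5 (3.48% to 4.63% of all genes). Without 1 library of E2-KO or D-KO that against E2-KO was at most 1 (0.481% to 0.691% of all genes). In all of these fits more members were higher than lower in D-KO, except where none against E2-KO was called, as without any 1 D-KO library or without E2-KO replicate 2 or 3.

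**Figure D5:**
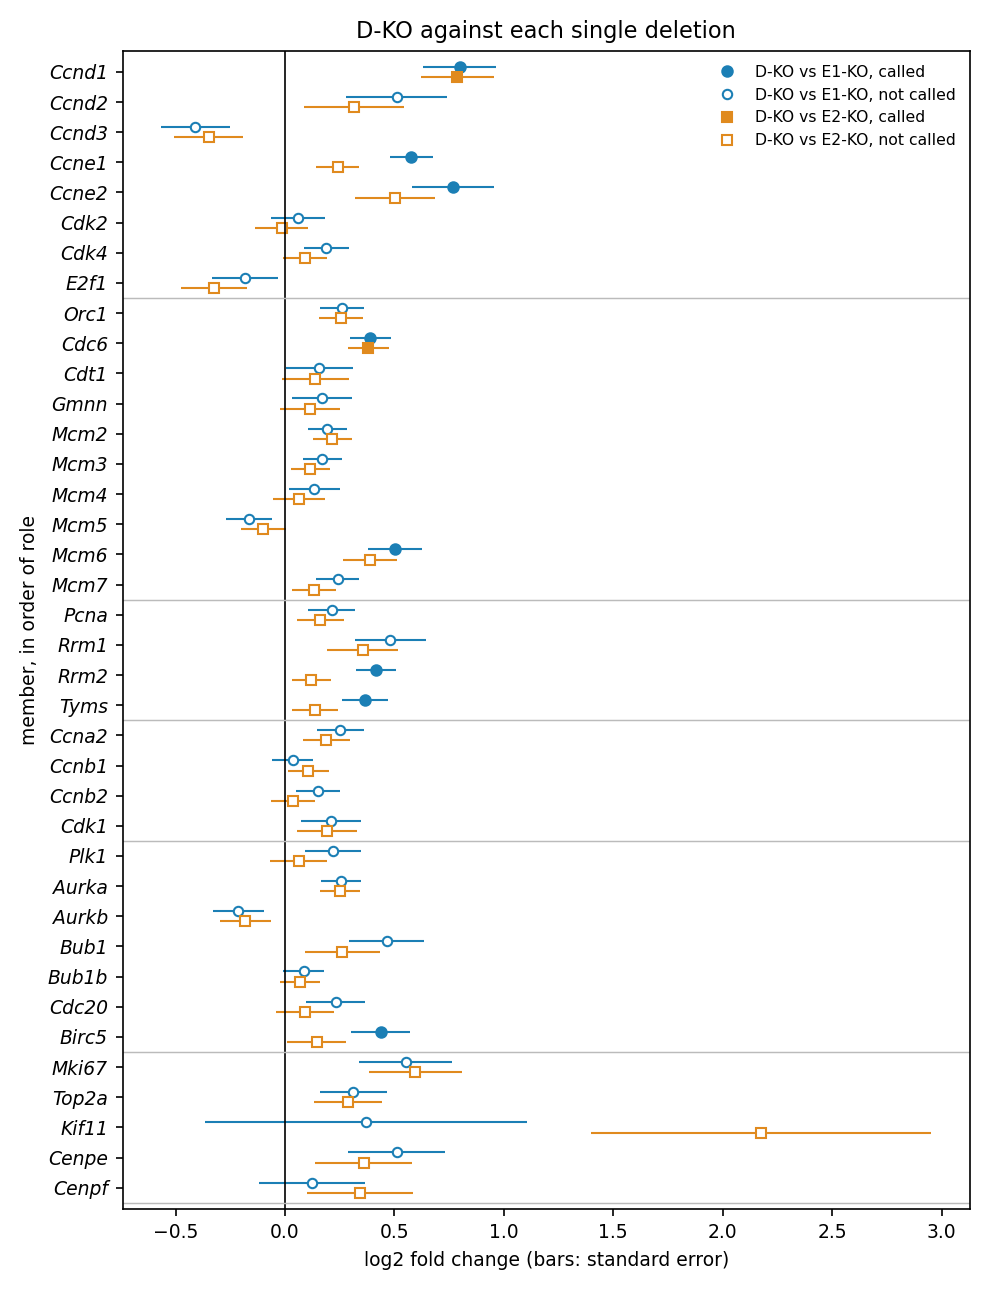
Log2 fold change of D-KO against E1-KO (blue circles) and E2-KO (orange squares) on the horizontal axis for each of the 38 genes (vertical axis, by role), with standard errors as bars and filled symbols for adjusted p below 0.05. Points lie right of 0 in 34 genes against E1-KO and 33 against E2-KO, and Kif11 has the widest bars.

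The interaction asks whether the change in D-KO differs from the sum of both single changes on the log2 scale, and shares WT with all of them. It was called above 0 in 15 members (39.5%, against 18.1% of all genes) and below 0 in 2 (5.26%, against 17.1%). The members' median was 0.35 against -0.01 over all genes, or 0.18 against -0.18 when scaled by library totals alone. Besides Ccnd2 the values included Ccne2 at 1.74 ± 0.26 (edgeR adjusted p = 0.000255), Mcm6 at 1.11 ± 0.17 (adjusted p = 0.000368), Mki67 at 1.42 ± 0.30 (adjusted p = 0.00278) and Cdc6 at 0.63 ± 0.13 (adjusted p = 0.00252). Since WT enters with both single deletions, the WT spread described above acts on each of these values. Removal of the trends gave 0.94 for Ccne2 and WT replicate 2 alone gave 0.65 for Mki67, both called. Ccnd1, Ccnd2, Ccnd3, Ccne2, Cdc6, Mcm6, Rrm1 and Mki67 were called in the interaction under all 8 other settings and in the 12 fits without 1 library.

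Other genes of the same pathways, 133 in 12 lists, were all tested. In E1-KO 11 rose and 40 fell against WT, in E2-KO 19 and 32, and in D-KO 12 and 16. These were 8.27% and 30.1% (against 15.7% and 18.5% of all genes), 14.3% and 24.1% (against 16.7% and 18.6%), and 9.02% and 12% (against 10.6% and 12.2%), so the D-KO shares were near those of all genes. Of the 7 CDK inhibitor genes 2 fell with loss of E1, 2 with loss of E2 and 3 in D-KO. These were 28.6%, 28.6% and 42.9%, against 18.5%, 18.6% and 12.2% of all genes. Cdkn1c, which encodes p57, was at 114 ± 60.0 CPM across WT (SD, n = 3), 13 ± 0.175 across E1-KO, 26.2 ± 2.20 across E2-KO and 50.9 ± 2.06 across D-KO. Cdkn1c fell in E1-KO by 3.13 ± 0.33 (edgeR adjusted p = 2.43e-05) and in E2-KO by 2.12 ± 0.31 (adjusted p = 0.000369), and was higher in D-KO than in E1-KO by 1.97 ± 0.33 (adjusted p = 0.00222). Cdkn1b, which encodes p27, was at 63.7 ± 10.6 CPM across WT, 45.0 ± 1.98 across E1-KO, 39.9 ± 3.28 across E2-KO and 28.8 ± 2.15 across D-KO. Cdkn1b fell by 0.50 ± 0.13 (edgeR adjusted p = 0.00836), 0.68 ± 0.13 (adjusted p = 0.00139) and 1.15 ± 0.13 (adjusted p = 3.65e-05), so its mean was lowest in D-KO. The Cdkn1b call in E1-KO was lost with the trends removed (-0.23) and when scaled by library totals. Cdkn2a fell in D-KO by 1.60 ± 0.39 (edgeR adjusted p = 0.00829), from 6.11 ± 3.70 to 2.05 ± 0.616 CPM, and its log2 fold changes of 0.09 and -0.49 in E1-KO and E2-KO were not called.

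The transcriptional regulators of the mitotic genes did not move together. Mybl2 (B-Myb) was at 604 ± 119 CPM across WT, 1320 ± 21.8 across E1-KO, 1206 ± 13.4 across E2-KO and 899 ± 12.3 across D-KO. Mybl2 rose by 1.13 ± 0.12 in E1-KO (edgeR adjusted p = 1.73e-05), 1.00 ± 0.12 in E2-KO (adjusted p = 5.59e-05) and 0.57 ± 0.12 in D-KO (adjusted p = 0.00476). After removal of the trends Mybl2 was at 0.74 and 0.56, called, and at 0.34 in D-KO, not called. Foxm1 fell in the same comparisons, by 0.43 ± 0.14 (edgeR adjusted p = 0.0299), 0.61 ± 0.14 (adjusted p = 0.00456) and 0.85 ± 0.14 (adjusted p = 0.000745). The Foxm1 call in E1-KO was lost with limma voom, with library totals, with only the 6 libraries, and without WT replicate 3 or any 1 E1-KO library, and removal of the trends gave -0.71, called. Rb1, the retinoblastoma protein, fell in E1-KO by 1.11 ± 0.15 (edgeR adjusted p = 0.000101) and in E2-KO by 0.82 ± 0.15 (adjusted p = 0.00104). Removal of the trends gave Rb1 values of -0.72 and -0.43, both called. E2f8, a repressing E2F factor, was at 41.2 ± 5.79 CPM across WT, 22.3 ± 1.95 across E1-KO, 26.3 ± 1.99 across E2-KO and 39.7 ± 2.31 across D-KO. E2f8 was the 1 gene of the 133 called between D-KO and E2-KO, higher by 0.59 ± 0.13 (edgeR adjusted p = 0.0193). That was 0.752% of the 133 higher and 0% lower, against 1.84% and 2.64% of all genes. E2f8 was also higher in D-KO than in E1-KO by 0.83 ± 0.13 (edgeR adjusted p = 0.00103). The E2f8 call against E2-KO was lost without any 1 library of E2-KO or D-KO.

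Of 24 polymerase and fork genes 1 rose and 9 fell with loss of E1, 1 and 5 with loss of E2, and 1 and 4 in D-KO. The shares that fell were 37.5%, 20.8% and 16.7%, against 18.5%, 18.6% and 12.2% of all genes. Rpa1, which coats single-stranded DNA, was at 678 ± 61.4 CPM across WT, 327 ± 7.78 across E1-KO, 371 ± 6.54 across E2-KO and 407 ± 8.13 across D-KO. Rpa1 fell by 1.05 ± 0.10 (edgeR adjusted p = 3.19e-06), 0.87 ± 0.10 (adjusted p = 1.77e-05) and 0.74 ± 0.10 (adjusted p = 0.000112). Of the 13 other origin and helicase genes, Orc3 was the 1 gene of the 133 called between the single deletions. It was lower in E2-KO than in E1-KO by 0.94 on the log2 scale (SE 0.18, edgeR adjusted p = 0.029). That was 0.752% of the 133 lower and 0% higher, against 0.322% and 0.274% of all genes. The Orc3 call was lost without any 1 library of E1-KO, E2-KO or D-KO. Of the 8 condensin genes 4 fell with loss of E1, 6 with loss of E2 and 2 in D-KO, and none rose in these comparisons. These falls were 50.0%, 75.0% and 25.0%, against 18.5%, 18.6% and 12.2% of all genes. Of the 19 kinetochore and spindle checkpoint genes 3 rose and 5 fell with loss of E1, 4 and 4 with loss of E2, and 4 and 1 in D-KO. With loss of E1 these were 15.8% and 26.3%, against 15.7% and 18.5% of all genes, so the share that rose was near theirs. With loss of E2 they were 21.1% and 21.1% (against 16.7% and 18.6%), and in D-KO 21.1% and 5.26% (against 10.6% and 12.2%). Ube2c, the ubiquitin-conjugating enzyme of the anaphase promoting complex, rose by 0.52 ± 0.11 (edgeR adjusted p = 0.0034), 0.65 ± 0.11 (adjusted p = 0.000765) and 0.79 ± 0.11 (adjusted p = 0.000242). With the trends removed Ube2c was at 0.16 and 0.23, not called, and at 0.55 in D-KO, called.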

How the data were processed

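The analysis used the 12 RNA-seq libraries, while 4C-seq and ChIP-seq data were not used here. The authors deposited raw read counts per gene symbol, 52535 symbols in each table. Per the submitters' processing notes the tools include HISAT2 2.1.0, HTSeq 0.9.1 and DESeq2 1.18.1, and the build is mm10. Neither annotation nor strand setting is recorded, both being not given in the sources used here. Rows that name no gene held 1.11 to 1.20 reads per counted read and stayed out of library sizes and tests. Genotypes came from the sample titles.

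Counts were filtered with filterByExpr, leaving 16765 genes, scaled by TMM and tested with edgeR 4.0.16 (R 4.3.3), using robust quasi-likelihood fits to all 12 libraries and Benjamini-Hochberg adjustment over all tested genes, at 0.05 with no minimum fold. The 7 comparisons were each deletion against WT, the deletions against each other, and the interaction. Alternatives used DESeq2 1.42.0, limma 3.58.1 (voom with sample weights), library totals, no filter, only the 6 libraries compared, a replicate block, removal of GC content and length trends (known for 97.1% of tested genes), WT replicate 2 alone, and leaving out each library. The edgeR fit alone was also run on counts simulated for D-KO against WT. That simulation gave every genotype the same dispersion, whereas WT varied more here. Gene positions are from GENCODE M21. The rule for naming gave full statistics, per comparison and role, to up to 2 called members with the smallest adjusted p and to the 3 largest called rises and falls, and named up to 2 called genes of each pathway list by smallest adjusted p. The other called members were added after their values were seen, so that all are accounted for. The members and lists were chosen with earlier results of these data known. Libraries of 1 genotype differed by a chi-square per gene of 40.0 to 79.0 in WT and 2.18 to 3.95 in the others, where sampling noise alone gives about 1.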

Additional observations from a re-analysis of the deposited data

Results flagged for a closer look

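In 17 of the 38 genes the change in D-KO differed from the sum of the E1-KO and E2-KO changes on the log2 scale, by edgeR's quasi-likelihood test of the interaction (adjusted p below 0.05). The D-KO value was above the sum in 15 (39.5%, against 18.1% of all genes) and below it in 2 (5.26%, against 17.1%). All of these values share the WT libraries. The D-KO value lay above the sum for Ccnd1 (0.87), Ccnd2 (3.29), Ccne1 (0.50) and Ccne2 (1.74) among the G1 genes. Among the licensing genes it did so for Orc1 (0.47), Cdc6 (0.63), Mcm2 (0.36) and Mcm6 (1.11), and among the synthesis genes for Pcna (0.62) and Rrm1 (1.11). The later genes above the sum were Ccna2 (0.52), Bub1 (0.94), Mki67 (1.42), Top2a (0.80) and Cenpe (1.02). Ccnd3 (-1.18) and Aurka (-0.46) lay below it. Of these, Mcm2 kept its call in 3 of the 12 fits that left out 1 library, Cenpe in 7 and Orc1 in 9, and each of the others in all 12. With GC content and length trends removed the calls of Orc1 (0.29), Ccna2 (0.31), Aurka (-0.24), Bub1 (0.41), Top2a (0.30) and Cenpe (0.49) were lost, and with WT replicate 2 as the only WT library that of Cenpe (0.16). Scaling by library totals ended those of Ccne1, Orc1, Mcm2 and Pcna, the absence of a filter those of Ccne1, Orc1, Mcm2 and Aurka, and the replicate block that of Mcm2.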

How the results depend on the processing

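The cause of each change below was not tested. Counts are members higher and lower, as called by edgeR in 12 libraries unless stated. Percentages in brackets are the shares of all tested genes called in the same direction. Those shares changed with the setting too, so a changed count alone is not a result about the members. With WT replicate 2 as the only WT library, E1-KO had 5 higher, E2-KO 6, and D-KO 20 higher and 6 lower against WT. In that setting E2-KO against E1-KO gave 9 and 1 (10.1% and 9.21%). D-KO against E1-KO gave 30 and 4 there (21.9% and 22.9%), and D-KO against E2-KO 24 and 4 (17.3% and 17.1%). In fits to only the 6 libraries compared, 4 were lower in E1-KO (8.35%), 3 lower in E2-KO (8.58%) and 1 higher in D-KO (4.1%). E2-KO against E1-KO gave 7 and 2 (10.6% and 10.8%). D-KO against E1-KO gave 30 and 4 (25.6% and 25%), and D-KO against E2-KO 25 and 4 (19% and 18.3%). With limma voom, E2-KO had 6 higher (14.5%), D-KO 3 lower (10.6%) and E2-KO against E1-KO 4 higher (9.57%). It gave 29 and 4 for D-KO against E1-KO (23.9% and 23.8%) and 20 and 3 for D-KO against E2-KO (17.5% and 17.6%). The interaction had 5 lower (20.9%). DESeq2 gave 2 higher in E2-KO against E1-KO (0.737%) and 5 higher in D-KO against E2-KO (3.47%). Scaling by library totals gave 5 higher in D-KO against WT (9.6%), 1 lower against E1-KO (10.4%) and 1 higher against E2-KO (1.44%). Without a filter 5 were higher in E2-KO (10.1%) and 1 lower in E2-KO against E1-KO (0.691%). In that setting 1 was lower in D-KO against E1-KO (4.65%) and 1 lower in the interaction (10.3%). After removal of GC content and length trends 2 were lower in D-KO against WT (12.7%) and 18 higher against E1-KO (12.3%). Against E2-KO 8 were higher (4.44%), and 1 was lower in the interaction (15%).

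The replicate block gave 1 higher in D-KO against E2-KO (1.43% of all genes) and moved no other count of members by over 1.5 times. With the block and the trends removed together, 5 were lower in E2-KO (15.1% of all genes) and 2 lower in D-KO (11.4%). D-KO had 18 higher against E1-KO (11.2%) and 6 higher against E2-KO (3.65%), and the interaction 1 lower (14.6%). Same-numbered libraries deviated together with correlations of -0.10 to 0.10, so the numbers were not shown to pair the samples.

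Leaving out 1 library at a time gave 2 to 9 higher and 7 to 17 lower in E1-KO, 2 to 9 and 5 to 15 in E2-KO, and 3 to 13 and 1 to 12 in D-KO against WT. It gave 0 to 2 and 0 to 1 for E2-KO against E1-KO, 3 to 20 and 0 to 1 for D-KO against E1-KO, 0 to 15 and 0 to 1 for D-KO against E2-KO, and 12 to 21 and 2 to 6 for the interaction. The shares of all genes called higher and lower changed with the library left out as well. Against WT they were 11.1% to 25.4% and 11.9% to 25.7% in E1-KO, and 11.3% to 26.2% and 11.7% to 25.7% in E2-KO. For D-KO they were 6.61% to 20.3% and 7.19% to 20.6%. E2-KO against E1-KO had 0.0406% to 1.84% and 0.0464% to 2.36%. D-KO had 3.48% to 15% and 3.29% to 14.5% against E1-KO, and 0.481% to 8.24% and 0.754% to 8.55% against E2-KO. The interaction had 13.8% to 24.7% and 12.9% to 25.9%. Where a genotype was left with 1 library, it was assumed to vary like the others.

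Some values changed sign. With WT replicate 2 alone as WT, Cenpe was at 0.199 and Orc3 at 0.034 in E1-KO, Bub1 at 0.124 in E2-KO, and Pola1 at 0.025 and Ncapg at 0.037 in D-KO. With the trends removed Ncapg was at 0.023 in E1-KO, also under the block (0.023). Scaling by library totals alone moved the share of higher genes among all calls from 45.9% to 57.1% in E1-KO against WT, from 46.0% to 35.0% in E2-KO against E1-KO, from 52.9% to 35.9% in D-KO against E1-KO and from 51.4% to 38.7% in the interaction. With GC trends removed it was 56.8% in E2-KO against E1-KO and 53.8% in D-KO against E2-KO, from 46.0% and 41.1%.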

Other observations

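Over the 3 genotypes with a deletion, 28 of the 38 genes had their lowest mean level in E1-KO and their highest in D-KO, with E2-KO between them (73.7%, against 25.6% of all tested genes). In 3 members the order was D-KO, E2-KO, E1-KO from lowest to highest (7.89%, against 23.9% of all genes). These orders are of means and carry no test.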
